A study of Mus musculus with 12 samples.

Results

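Sln, Myl7, Mybphl, Sbk2 and Sbk3, muscle genes known for their expression in the atria, are described here with Myl1 in the left ventricle of mice after a short pressor infusion. Myl1 was chosen with them as atrial-type but is best known from fast skeletal muscle. They were chosen by symbol, for large changes, from the authors' own list of genes called as changed, and all 6 are among its 3939 genes. Because those values chose them, their changes are a description, with no test beyond the one the authors had made.

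The libraries came from whole left ventricular myocardium of wild-type mice of a C57Bl6J/129X1 hybrid background. Control mice received NaCl and treated mice AngII/PE by infusion, both for 3 days, and neither arm carries a transgene or other allele in the labels. By common usage AngII/PE means angiotensin II, a peptide that constricts blood vessels, given together with phenylephrine, which activates alpha-1 adrenergic receptors. Control and treated arms held 6 libraries each, with 3 from females and 3 from males in each arm, 12 in all. Age is not given in the labels, nor whether each library is a separate mouse, so the p-values measure the spread between these libraries. The deposited table compares the arms over both sexes and gives, for each listed gene, an average log2 fold change (1 unit is a doubling) and a p-value adjusted for the false discovery rate. It holds no level in any library, so neither the depth nor the spread within a group is known, and the ventricular identity of the tissue could not be checked against marker levels.

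Atrial and ventricular heart muscle use different versions of several contractile and calcium-handling proteins. Atrial fibres carry their own regulatory myosin light chain (Myl7) and their own small inhibitor of the sarcoplasmic reticulum calcium pump (Sln), where ventricular fibres rely on Myl2 and on phospholamban. In the adult mouse the atrial forms are abundant in atria and scarce in the ventricle. Whole myocardium pools all its cells, so fewer cells of a type and less RNA per cell cannot be told apart.

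Of the 6 genes, 5 fell and 1 rose. Of all genes in the authors' deposited table, 43.8% were lower and 56.2% higher. Since size in this same comparison chose the genes, nothing is read from their count. The fallen genes were Sln, encoding sarcolipin, Myl7, Mybphl, a myosin-binding protein of atrial muscle and the conduction system in mice, and the kinase genes Sbk2 and Sbk3. Myl1, which encodes an essential light chain of myosin, was the gene that rose.

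The starts of the fallen genes are shown first, because genes that move together can be compared by what lies upstream of them. RefSeq's table of promoters, on GRCm38.p6, held 5 of the 6 genes, all but Sln. The 150 bases before the RefSeq start are printed for Myl7, Mybphl, Sbk2 and Sbk3, each 5′ to 3′ on the gene's own strand. Of GENCODE transcripts, 3 overlap the window of Myl1, 1 of them with an exon in it, and that window is not printed. For Sbk3, 1 GENCODE transcript starts further upstream, so that its window lies inside the span GENCODE gives the gene, with no exon in it. Capitals mark every match to 9 motifs searched on both strands. The TATA box, which helps to place the start of transcription, was searched as TATAAA. The site of GATA factors, which are regulators of heart muscle genes, was searched as AGATAA. For the T-box family, to which Tbx5 belongs, the letters used were AGGTGT. For nuclear receptors such as Nr2f1, the letters of a single site were AGGTCA. The core of the site of the homeodomain factor NKX2-5 was searched as AAGTG. The E box of basic helix-loop-helix factors was searched as CANNTG. The MCAT element, which TEAD factors recognise in muscle genes, was searched as CATTCC. MEF2 and CArG boxes, sites of other muscle regulators, are given by name alone.
Myl7, chr11:5898783-5898932, minus strand: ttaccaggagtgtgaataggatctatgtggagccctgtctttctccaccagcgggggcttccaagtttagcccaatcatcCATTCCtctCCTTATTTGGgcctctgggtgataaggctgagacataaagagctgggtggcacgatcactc
Mybphl, chr3:108364761-108364910, plus strand: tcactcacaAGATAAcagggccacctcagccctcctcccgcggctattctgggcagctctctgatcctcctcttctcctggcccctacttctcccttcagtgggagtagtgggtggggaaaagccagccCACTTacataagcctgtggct
Sbk2, chr7:4964407-4964556, minus strand: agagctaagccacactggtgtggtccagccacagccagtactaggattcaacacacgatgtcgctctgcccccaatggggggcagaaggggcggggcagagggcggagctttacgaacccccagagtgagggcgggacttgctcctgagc
Sbk3, chr7:4970962-4971111, minus strand: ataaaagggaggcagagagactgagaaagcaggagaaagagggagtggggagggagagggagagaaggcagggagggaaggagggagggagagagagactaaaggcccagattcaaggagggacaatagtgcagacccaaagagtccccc

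No motif was present in more than 1 of these 4 windows, but the MCAT element of Myl7 also had a match in the unprinted Myl1 window, from -80 to -75, beside a TATA box from -95 to -90, both on the other strand. Myl7 held an MCAT element from base -70 to -65 and a CArG box, the recognition sequence of serum response factor, from -61 to -52, counted back from the start. MCAT elements occurred in 7.59% and CArG boxes in 0.916% of the 32851 windows of this length in the RefSeq table. Mybphl held a GATA site from -141 to -136 and, on the other strand, an NKX2-5 site from -21 to -17. Those letters occurred in 5.65% and 26.4% of all windows. None of the 9 motifs matched in the Sbk2 or Sbk3 window, which shows only that these letters are not in these bases. G and C made up 51.3% of the Myl7 window, 58.0% for Mybphl, 62.7% for Sbk2 and 56.0% for Sbk3.

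Sarcolipin and the atrial light chain had the lowest values of the whole list. Sln was at a log2 fold change of -5.30, or 39.4-fold lower in the authors' deposited table (adjusted p = 1.15e-05). Myl7 was at -5.23, or 37.4-fold lower in the authors' deposited table (adjusted p = 2.07e-05). The values of the pair lie 0.08 apart on the log2 scale, and the next lowest gene after them was Aqp6, an aquaporin, at -3.22 in the authors' deposited table. Between Myl7 and Aqp6 there is thus a gap of 2.01 with no listed gene in it.

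Mybphl was number 4 from the lowest, at a log2 fold change of -3.03, or 8.19-fold lower in the authors' deposited table (adjusted p = 1.12e-10). Its nearest named neighbour above was the chloride channel gene Clcn1, at -2.90 in the authors' deposited table. Sbk3 was at -2.46, or 5.50-fold lower in the authors' deposited table (adjusted p = 5.78e-25). Sbk2 was at -2.28, or 4.85-fold lower in the authors' deposited table (adjusted p = 1.10e-39). The Sbk genes encode SH3-binding domain kinases, and their values lie 0.18 apart on the log2 scale. Nearest to Sbk3 were the potassium channel subunit gene Kcnv2 at -2.50 and the cell adhesion gene Opcml at -2.44 in the authors' deposited table. Nearest to Sbk2 were the carboxylesterase gene Ces1d at -2.25 and the mitochondrial ribosomal RNA mt-Rnr2 at -2.37 in the authors' deposited table. Nearness here is in a single fold change, the only measure the table gives.

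Myl1 rose by 2.22 on the log2 scale, or 4.64-fold in the authors' deposited table (adjusted p = 3.35e-08). It stood at number 276 among the rises, between S100a11, a calcium-binding protein gene, at 2.20 and the centromere gene Cenpn at 2.22 in the authors' deposited table. Falls of this size were rarer than rises: 23 listed genes, 0.584%, were at -2 or less, against 335, 8.5%, at 2 or more. The 5 fallen genes are among those 23, which follows from their choice for large changes, so nothing is read from it. The genes on either side of the limits were Rp1 at -2.11 and Gm49477 at -1.996 among falls, and Col6a3 at 2.0002 and Lhfpl2 at 1.999 among rises in the authors' deposited table.

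**Figure D1:**
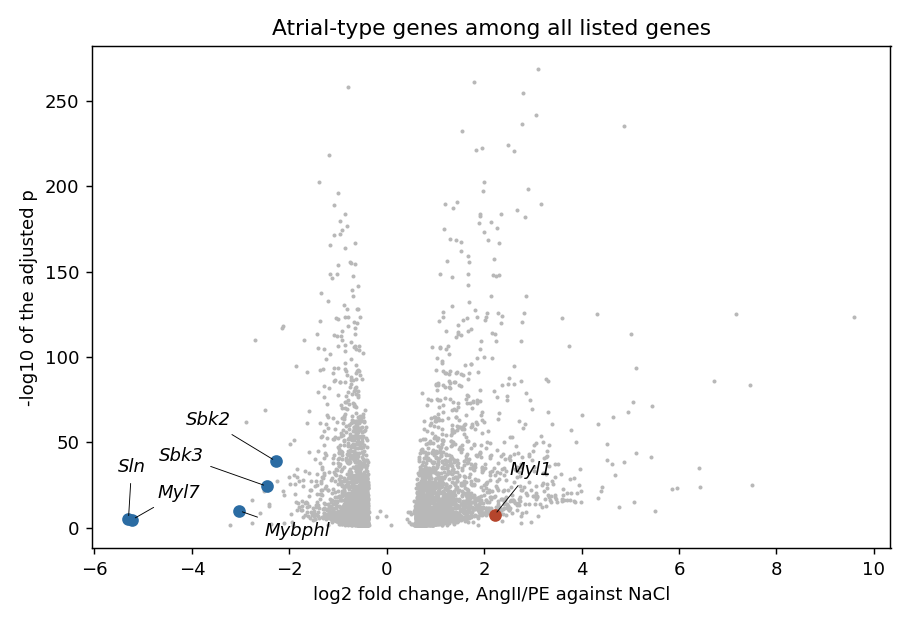
Log2 fold change of AngII/PE against NaCl (horizontal) and -log10 of the adjusted p (vertical) for all listed genes except the 16 listed at an adjusted p of 0, with the atrial-type genes coloured (blue lower, red higher). Sln and Myl7 sit alone at the far left and low, at -5.30 and -5.23, while Sbk2 and Sbk3 have smaller falls and smaller adjusted p.

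Among the fallen genes, the order by size was nearly the reverse of the order by significance. Of all genes in the authors' deposited table, 77.2% had a smaller adjusted p than Sln and 78.3% a smaller one than Myl7. The shares were 58.1% for Mybphl, 30.2% for Sbk3 and 18.1% for Sbk2 in the authors' deposited table, and 66.3% for Myl1.

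The table has no standard errors, but an upper limit can be set on them if the p-values came from a two-sided test on a normal statistic, and if the listed average is the quantity that was tested. The sources used here are silent on both points. The pair need not belong together for every gene: Eif2s3y, a Y-linked gene singled out after its values were seen, is listed at -0.01 with an adjusted p of 9.56e-08 in the authors' deposited table. Other sex-linked genes are listed too, Ddx3y at -0.37 and Xist at 2.96 in the authors' deposited table. What these values mean for the sex balance of the arms was not tested. An unadjusted p is never above its adjusted p, so the fold change divided by the normal deviate of the adjusted p is the largest standard error allowed under those conditions. That limit was 1.21 log2 units for Sln and 1.23 for Myl7. It was 0.47 for Mybphl, 0.40 for Myl1, 0.24 for Sbk3 and 0.17 for Sbk2. Over all genes with a limit, Myl7 and Sln ranked 2 and 3 from the widest, behind Aqp6 at 1.58, whereas Sbk3 ranked 750 and Sbk2 1396. The 18 other genes at -2 or less had a median limit of 0.25, and of these only Aqp6 exceeded Sln and Myl7. These are limits and not estimates, and how much each library contributed was not measured.

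On the same assumptions the widest 95% interval of the log2 fold change ran from -7.67 to -2.93 for Sln and from -7.63 to -2.82 for Myl7. It ran from -3.96 to -2.11 for Mybphl, from -2.93 to -1.99 for Sbk3 and from -2.62 to -1.94 for Sbk2. For Myl1 it ran from 1.43 to 3.00. The intervals of Sln and Myl7 overlap that of Mybphl, and that of Myl7 also overlaps that of Sbk3. That of Mybphl overlaps those of Sbk2 and Sbk3. These are outer bounds, and whether neighbours in that order differ cannot be read from them. No difference between members was tested.

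**Figure D2:**
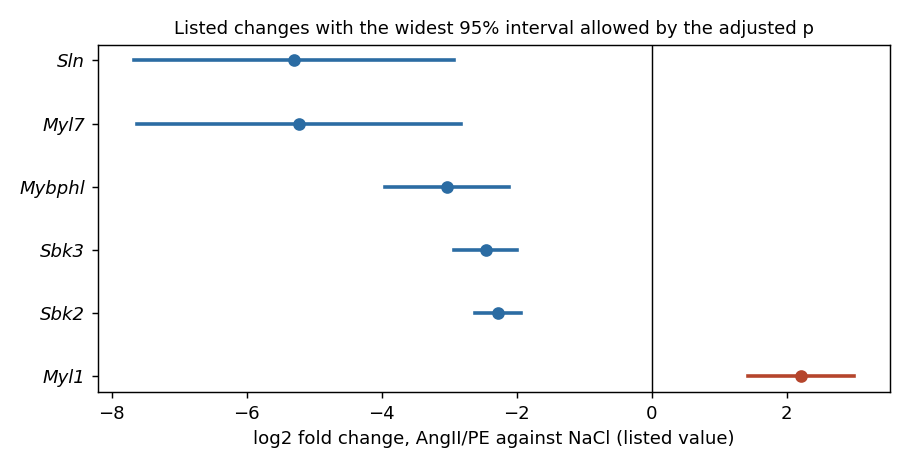
Listed log2 fold change of AngII/PE against NaCl for each atrial-type gene (points, blue lower and red higher) with the widest 95% interval that its adjusted p allows under a normal test (lines). The lines of Sln and Myl7 reach from -7.67 to -2.93 and from -7.63 to -2.82, and those of Sbk2 and Sbk3 are the shortest.

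**Figure D3:**
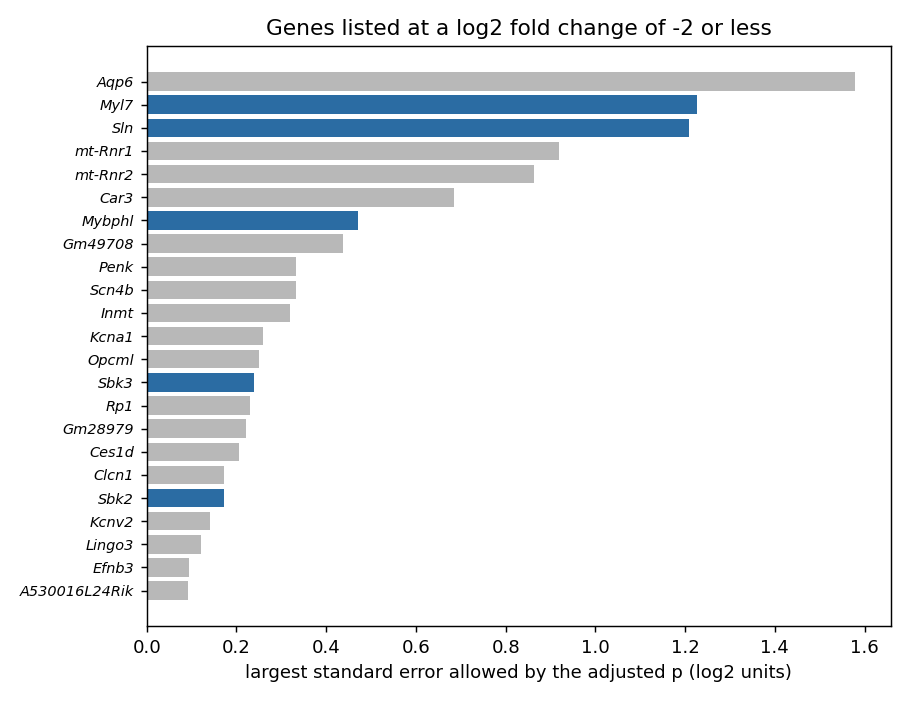
Largest standard error, in log2 units, that the adjusted p allows under a normal test for the 23 genes listed at a log2 fold change of -2 or less, with the atrial-type genes in blue. Myl7 (1.23) and Sln (1.21) lie just under Aqp6 (1.58), and Mybphl (0.47) lies below them. Of the 18 other genes, 10 have a wider limit than Sbk3 (0.24) and 14 a wider one than Sbk2 (0.17).

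Sarcolipin acts on the calcium pump of the sarcoplasmic reticulum, and the pump and its other listed small regulators were lower as well. Of 8 genes of the pump and its regulators, 4 were listed and were lower, 1 of them Sln itself, which was chosen for its fall. Of all listed genes 43.8% were lower, and 15.2% of all protein-coding genes are listed. Strit1, encoding DWORF, a small peptide that raises pump activity, was at -1.95 in the authors' deposited table (adjusted p = 2.62e-04). The ventricular inhibitor gene Pln was at -0.91 and the pump gene Atp2a2 at -0.96 in the authors' deposited table. For Sln the listed fall was therefore 39.4-fold beside 1.88-fold for Pln and 1.95-fold for Atp2a2 in the authors' deposited table. Of 17 genes of the calcium store and its release, 2 were listed, Hrc, a calcium-binding protein of the store, at -1.37 and Sri, encoding sorcin, at 0.65 in the authors' deposited table, though Sri lies below 0 once values are recentred on the median of the list.

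Of 16 genes of myosin light chains and light chain kinases, 3 were higher and 4 lower. Of all listed genes 43.8% were lower. Myl1 among the higher and Myl7 among the lower were chosen for their size, so nothing is read from these counts. Myl2, the ventricular counterpart of Myl7, was at -1.17 and the ventricular essential light chain gene Myl3 at -0.86 in the authors' deposited table. Mylk4, a kinase of the light chain kinase family, was at -1.72 in the authors' deposited table. The smooth muscle regulatory chain gene Myl9 was at 2.34, close to Myl1, and the non-muscle and smooth muscle chain gene Myl6 at 0.90 in the authors' deposited table. Myl4, the atrial essential light chain gene and the usual partner of Myl7, had no value analysed here.

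Heavy chain genes were 3 higher and 2 lower of 14, where 43.8% of all listed genes were lower. Myh6, the alpha chain shared by adult mouse atria and ventricles, was at -0.65 and Myh7b at -1.06, whereas Myh7, the beta chain gene, was at 0.92 in the authors' deposited table. The non-muscle chain genes Myh9 and Myh10 were at 1.02 and 0.92 in the authors' deposited table. Of the 5 myosin-binding protein genes, Mybphl was accompanied by Mybpc2, the fast skeletal form, at 1.66 in the authors' deposited table, so these relatives lay on opposite sides of 0. Of the 3 Sbk genes, Sbk1 had no value analysed here.

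**Figure D4:**
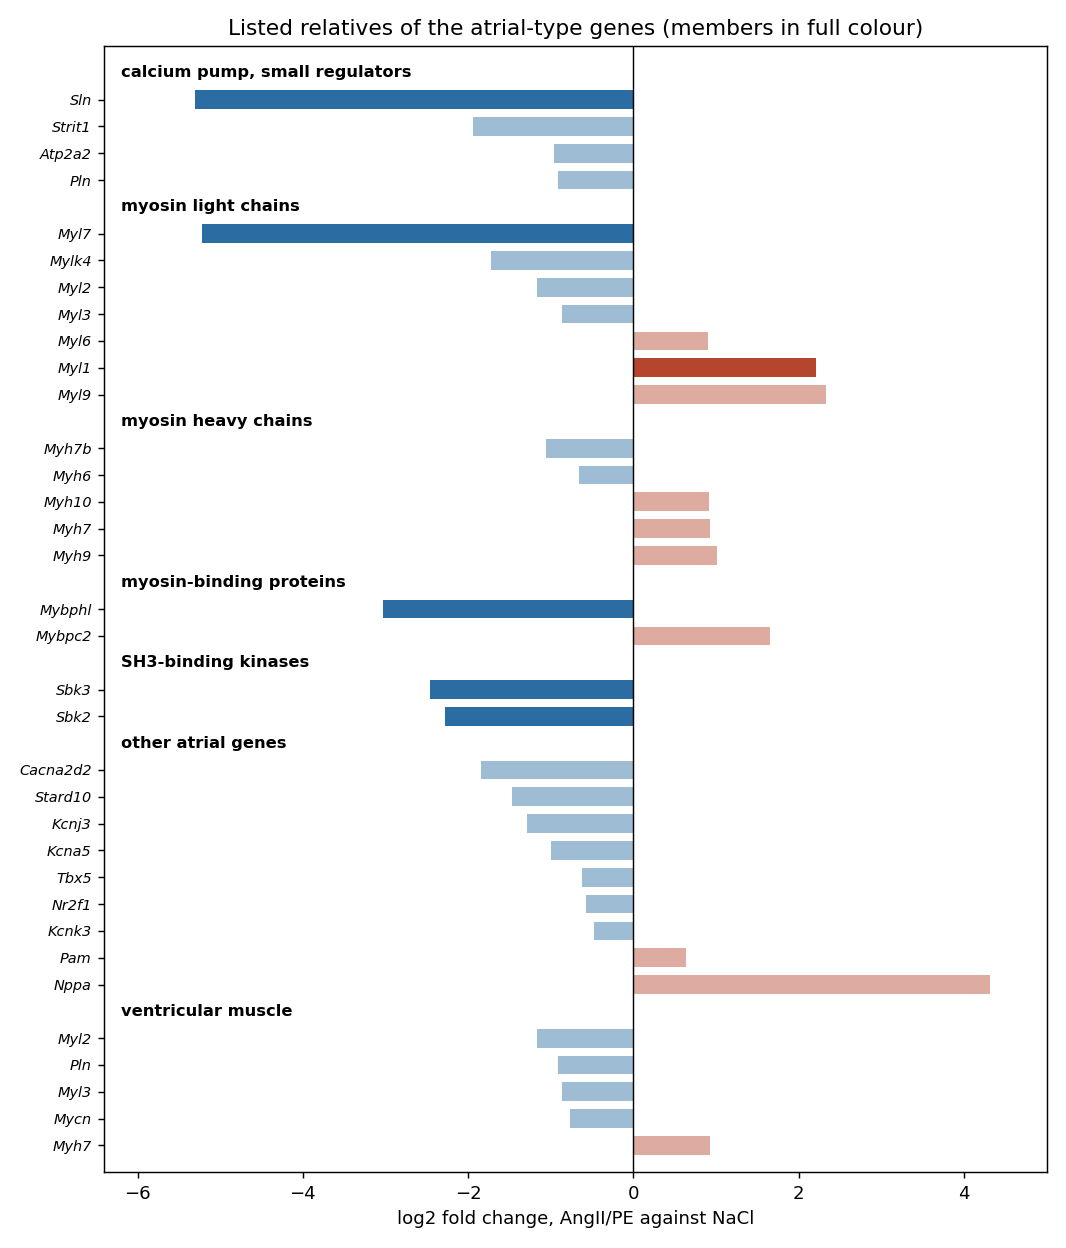
Log2 fold change of AngII/PE against NaCl for the listed genes of each family and for other atrial and ventricular genes (bars, blue lower and red higher), with the atrial-type genes described here in full colour. Sln and Myl7 extend past -5, their ventricular counterparts Pln and Myl2 lie near -1, and Nppa at 4.32 is the longest bar on the other side.

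Among other listed genes known for atrial muscle, those that were lower had smaller falls than the 5 fallen genes. The 5 were chosen for large changes, so this difference in size follows from the choice and nothing is read from it. Besides the 6 described here, the atrial list had 17 genes, of which 9 were listed, 7 lower and 2 higher. Of all listed genes 43.8% were lower. The median log2 fold change was -0.62 against 0.67 over all listed genes. This list was chosen with earlier results of these data known, and small falls are listed more readily than small rises. Nothing is therefore read from the count or the median. Cacna2d2, an auxiliary calcium channel subunit gene, was at -1.85 and Stard10, a lipid transfer protein gene, at -1.46 in the authors' deposited table. Potassium channel genes followed, and Kcnj3, Kcna5 and Kcnk3, whose channels shape the atrial action potential, were at -1.28, -0.995 and -0.47 in the authors' deposited table. Tbx5 and Nr2f1, transcription factor genes of atrial identity, were at -0.62 and -0.58 in the authors' deposited table.

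The higher atrial genes were Nppa and Pam. Nppa, encoding atrial natriuretic peptide, was at 4.32, or 19.9-fold higher in the authors' deposited table (adjusted p = 8.90e-126). Pam, the amidating enzyme abundant in atrial secretory granules, was at 0.64 in the authors' deposited table, and lies below 0 if values are recentred on the median of the list. Atrial genes without a value analysed here included Myl4, Bmp10, Dkk3, Kcnj5, Chrm2, Nr2f2 and Hamp. Atrial-type transcripts thus lay at both ends of the list, with Sln the lowest of all genes and Nppa number 33 among the rises. The part of atrial tissue in the dissected samples was not tested, since no level per library was analysed here.

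Markers of ventricular muscle were 4 lower and 1 higher among the 5 listed of 12, with a median of -0.86. Of these, Myl2, Myl3, Myh7 and Pln were already counted above. Over all listed genes 43.8% were lower and 56.2% higher. Those shares stand beside this count and those of the lists that follow, and nothing is read from the counts. Besides those named, the transcription factor gene Mycn was at -0.76 in the authors' deposited table. Conduction system genes were 5 lower and 2 higher among 7 listed of 20, with a median of -0.50. The pacemaker channel gene Hcn4 was at -0.86, the sodium channel gene Scn10a at -0.90 and Cntn2, a Purkinje fibre adhesion gene, at -0.80 in the authors' deposited table. Of 24 cardiac lineage transcription factor genes, 3 were lower and 1 higher, with Tbx5 and Nr2f1, already counted above, among the lower. Tbx20 was at 0.69 and Prdm16 at -0.48 in the authors' deposited table.

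Skeletal muscle genes, the group to which Myl1 otherwise belongs, were 4 higher and 5 lower among 9 listed of 23. Tnnt3, fast troponin T, was at 3.23 and Acta1, skeletal actin, at 2.44, while Clcn1 was at -2.90 and the calcium channel gene Cacna1s at -1.91 in the authors' deposited table. Among fast-fibre markers, Mylpf, Myh1, Myh2, Myh4, Tnni2, Tnnc2, Actn3 and Pvalb had no value analysed here.

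Other tissues that a dissection can carry had markers on both sides. Valve and endocardium markers were 4 higher and 3 lower among 7 listed of 9, with Cytl1 at -1.86, Wif1 at -1.66, Plvap at 1.23 and Comp at 1.13 in the authors' deposited table. Adipocyte markers had 2 listed of 8, Cfd at -1.93 and Cidea at 0.66 in the authors' deposited table, the latter also below 0 once recentred. Epicardium and mesothelium markers had 3 listed of 10, all higher, Krt18 at 4.86, Aldh1a2 at 3.17 and Tbx18 at 0.88 in the authors' deposited table. Summed marker levels in each group cannot be given without values per library, and the part of such tissue in the falls was not tested.

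By position the 6 genes lie on 5 chromosomes, and each is protein coding in GENCODE M21 on GRCm38 (mm10). Sln spans chr9:53850164-53854560 and has 2 exons, 93 coding bases and a transcript of 1318 bases. Myl7 spans chr11:5896637-5898782 with 7 exons and 525 coding bases. Mybphl spans chr3:108364911-108380057 with 9 exons and Myl1 chr1:66924295-66945404 with 8 annotated transcripts. Sbk2, chr7:4940512-4964406, and Sbk3, chr7:4965260-4971168, lie in tandem on the minus strand with 853 bases between them, and their longest coding sequences have 1086 and 1083 bases.

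Genes listed near the 6 lay on both sides of 0. Within 100 kb of the 6 genes lie 35 other protein-coding genes, and 9 of them (25.7%) were listed, 6 higher and 3 lower, where 15.2% of all protein-coding genes of the annotation are listed. This difference was not tested. Beside Myl7, the matrix gene Aebp1 was at 2.26 in the authors' deposited table. Camk2b, a calcium-dependent kinase gene, was at -0.75 there in the authors' deposited table. Psrc1, a spindle gene next to Mybphl, was at 3.62 and the cadherin gene Celsr2 nearby at -0.77 in the authors' deposited table. Ssc5d, a secreted scavenger receptor gene that overlaps Sbk2 on the opposite strand, was at 1.86 and Isoc2a, near both Sbk genes, at -0.68 in the authors' deposited table. No protein-coding neighbour of Sln or Myl1 within that distance was listed.

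Shared sequence limits the reading of Mybphl and Myl1 more than that of the others. Of the 31-base words in the transcripts of each gene, 0 of 1288 for Sln, 0 of 560 for Myl7, 0 of 3144 for Sbk2 and 0 of 3166 for Sbk3 occurred in a transcript of another gene on either strand. Mybphl shared 61 of 1246 with Gm12522, a transcript that overlaps it on the opposite strand, and Myl1 shared 299 of 2067 with the pseudogene Mylf-ps. The sources used here do not give whether counting used strand, so reads from those stretches cannot be assigned with certainty. The row of Sln was taken by its symbol, because its description cell in the deposited table names a different gene, matrix metallopeptidase 3, for which RefSeq lists SLN1 among the alternative names. Mmp3 itself had no value analysed here.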

How the data were processed

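Whole left ventricular RNA libraries, 12 in 4 groups of 3, were grouped by the labels. The submitters' processing notes name build mm10, DESeq2, featureCounts, Subread, STAR 2.4.2a and cutadapt, without roles or settings. The deposited table holds the authors' average log2 fold change and their adjusted p-value, per the file headers. It holds called genes only (highest adjusted p 0.0497, under the 0.05 threshold), so a gene without a value may have changed, and the number of genes tested and the depth are unknown. The listing also treats small rises and small falls unequally, and the reason is not given. Falls near -0.39 are listed, such as Csl at -0.385 and C1qbp at -0.387. Few rises below 0.59 are listed, such as Cebpb at 0.41 and Cdkn1a at 0.46. The shares lower and higher and the median over all listed genes depend on this. A scaling that treats rises and falls unequally would shift the values together.

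From these values, counts by direction, ranks and limits on standard errors were computed (Python 3.11.15, pandas 2.3.3, SciPy 1.17.1). No test was run on the fold changes. The limit was checked on simulated normal statistics, where it holds by construction, so the check says nothing about the unknown test behind the listed values. The motif search was checked only for planted TATA boxes on the plus strand. Positions, neighbours and shared words came from GENCODE M21, promoters from RefSeq.

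The 6 genes and the 14 lists (163 genes) were chosen with earlier results of these data known, and the promoter window, the motifs and the 100 kb distance after the values were seen. Named were the 6 genes; all listed genes of their families and of the atrial and ventricular lists; up to 4 listed genes with the largest change from each other list; genes at -2 or less; and nearest neighbours in fold change. Genes beside the limits of -2 and 2, genes near the 6 in the genome, and genes without a value were named after their values were seen. So were the sex-linked genes and the genes that show where listing begins. A few genes that the rule names are not reported here.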

Additional observations from a re-analysis of the deposited data

How the results depend on the processing

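The 6 genes were picked for large changes, all over 2 in size with adjusted p of at most 2.07e-05, so thresholds of 0.01 and 0.001 on the adjusted p or of 1 on the log2 size, the removal of predicted models, RIKEN clones and pseudogenes, and recentring on the median of all listed genes (0.67) had to leave their 5 falls and 1 rise in place, which says nothing about stability. The number of all listed genes that were lower was 1726, and with a size of 1 or more on the log2 scale it was 274. The median limit on the standard error was 0.25 among other falls of at least 2 and 0.16 among other falls of at least 1. Recentring subtracts the same amount from each value, and since the list holds called genes only, that median depends on where listing begins for rises and falls. It reversed Pam (-0.0390), Sri (-0.0278) and Cidea (-0.0110), and raised the genes at -2 or less from 23 to 116. With the size threshold of 1, 3 of the 7 lower atrial genes outside the 6 were left. No paired analysis was possible because the deposited table has no columns per library and the labels number no replicates; for the same reason no library could be left out and neither sex could be described alone. Unknown depth limits every value.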
